A study of Mus musculus with 16 samples.

Results

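The 45 genes described here encode proteins that copy DNA, carry the cell through mitosis or split it in 2, and their transcripts were read as a measure of dividing cells in the apex of the mouse heart. They were taken by name from a list of S-phase and mitosis genes, and all 45 were among the 55573 genes of the count table. By role, 10 serve DNA replication and nucleotide supply, 3 regulate the passage from G1 to S phase, 14 are mitotic cyclins, kinases and regulators, and 18 build chromosomes, kinetochores, the spindle or the cleavage furrow. Measured in 16 mice was poly(A)-selected RNA by single-end sequencing, with 4 mice in each of 4 groups. AAV9-GFP and AAV9-Cardinal mice were wild-type pups that received, on postnatal day 1, an adeno-associated virus of serotype 9 carrying GFP or the long noncoding RNA Cardinal, both driven by the cardiac troponin T (cTNT) promoter, which acts in cardiomyocytes. As adults they underwent either transverse aortic constriction (TAC), a ligature that narrows the aorta and loads the left ventricle with pressure, or a sham operation without the ligature, and hearts were taken 4 weeks later. The study used male mice only, and the strain and the age at surgery were not given in the sources used here. Each library is called a mouse here, as the labels number them, so p-values measure the spread between these libraries.

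Most cells of the adult heart are not dividing. Adult cardiomyocytes have left the cell cycle, and cycling cells in heart tissue are mainly fibroblasts, endothelial cells and leukocytes. In a dividing cell the E2F factors switch on the replication genes in late G1 and S phase, and the DREAM complex, which keeps the genes of mitosis silent in resting cells, gives way to MYB and FOXM1, which switch them on in G2. The mitotic genes are therefore the more specific mark of division, whereas the MCM helicase, PCNA and RRM1 are also made for DNA repair or remain in resting cells. In RNA from whole tissue, more dividing cells and more RNA per dividing cell cannot be told apart.

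The promoters of these genes were searched for the elements through which the 2 waves are known to be read. RefSeq sequence of GRCm38.p6 was available for 38 of the 45 genes, and the 250 bases before the start are printed for 6 that the results turn on: the proliferation marker Mki67, the mitotic genes Top2a, Kif11 and Cdk1, the replication gene Mcm6, and Cenpf, which moved the other way. Capitals mark every match, on either strand, to the cell cycle homology region of DREAM targets (TTTGAA or TTCGAA), to the CCAAT box bound by NF-Y, or to an E2F site (TTTCGCGC or TTTGGCGC). All 6 are read 5′ to 3′ along the gene.
Mki67 (chr7:135716380-135716629, minus strand): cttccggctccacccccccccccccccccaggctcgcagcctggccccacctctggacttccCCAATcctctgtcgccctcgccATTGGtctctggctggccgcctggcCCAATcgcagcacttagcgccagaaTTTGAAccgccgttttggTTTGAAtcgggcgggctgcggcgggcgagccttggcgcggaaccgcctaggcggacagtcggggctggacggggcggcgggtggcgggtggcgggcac
Top2a (chr11:99024190-99024439, minus strand): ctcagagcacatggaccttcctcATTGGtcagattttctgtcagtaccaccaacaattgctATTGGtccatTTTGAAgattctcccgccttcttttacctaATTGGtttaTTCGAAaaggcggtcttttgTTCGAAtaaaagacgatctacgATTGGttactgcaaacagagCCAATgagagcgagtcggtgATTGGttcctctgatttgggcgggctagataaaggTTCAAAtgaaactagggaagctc
Kif11 (chr19:37376132-37376381, plus strand): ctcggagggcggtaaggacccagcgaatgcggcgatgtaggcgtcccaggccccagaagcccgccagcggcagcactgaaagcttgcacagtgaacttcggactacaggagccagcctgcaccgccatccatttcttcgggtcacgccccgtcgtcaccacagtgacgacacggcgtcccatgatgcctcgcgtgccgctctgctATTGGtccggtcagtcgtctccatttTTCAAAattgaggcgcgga
Cdk1 (chr10:69352913-69353162, minus strand): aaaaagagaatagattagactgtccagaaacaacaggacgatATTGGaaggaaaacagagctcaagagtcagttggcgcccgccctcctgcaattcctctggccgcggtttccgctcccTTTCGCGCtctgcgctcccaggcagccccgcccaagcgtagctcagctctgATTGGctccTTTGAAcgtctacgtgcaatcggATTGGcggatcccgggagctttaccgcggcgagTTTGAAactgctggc
Mcm6 (chr1:128359706-128359955, minus strand): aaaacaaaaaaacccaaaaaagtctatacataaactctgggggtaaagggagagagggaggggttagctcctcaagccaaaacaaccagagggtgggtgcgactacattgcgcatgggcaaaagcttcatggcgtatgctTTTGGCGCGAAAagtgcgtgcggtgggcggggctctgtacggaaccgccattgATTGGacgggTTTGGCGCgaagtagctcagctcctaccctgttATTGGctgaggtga
Cenpf (chr1:189688087-189688336, minus strand): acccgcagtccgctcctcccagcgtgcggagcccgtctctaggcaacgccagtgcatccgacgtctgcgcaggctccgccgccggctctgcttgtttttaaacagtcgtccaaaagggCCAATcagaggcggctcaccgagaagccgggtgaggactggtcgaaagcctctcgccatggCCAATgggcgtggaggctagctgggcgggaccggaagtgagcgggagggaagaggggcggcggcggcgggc
A CCAAT box stood in 29 of the 38 promoters (76.3%), against 37.5% of the 27025 genes with a promoter in the same table. The cell cycle homology region was in 12 (31.6% against 19.6%) and the E2F site in 3 (7.89% against 0.759%). Mki67, Top2a, Kif11 and Cdk1 hold both the CCAAT box and the homology region, and Cdk1 an E2F site as well. Mcm6 holds 3 overlapping or separate E2F matches and 2 CCAAT boxes. The Cenpf window holds 2 CCAAT boxes and neither of the other motifs. This does not set it apart: of the 16 chromosome and spindle genes with a promoter, 5 hold the homology region and 0 an E2F site. Ccnb1 and Spc25, which were higher after TAC under AAV9-GFP, also hold the CCAAT box alone. Tyms, which was higher too, holds none of the motifs. These are matches of letters in a window and were not tied to binding in these hearts.

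Libraries held 16441997 to 21904589 counts, with AAV9-Cardinal sham replicate 4 the shallowest. The lincRNA next to Myocd at the Cardinal locus, Gm12295, lay at 18.3 to 93.8 CPM (counts scaled to library size) in the 8 AAV9-Cardinal mice and at 3.42 to 7.24 CPM in the 8 AAV9-GFP mice, so the virus labels and the transcript went together. Heart tissue was recognised by the cardiomyocyte markers, whose 8 genes summed to 36589 to 50509 CPM. AAV9-Cardinal TAC replicate 1 stood apart from its group in the 8 fibroblast markers, which summed to 989 CPM there against 529 to 572 CPM in the other 3 mice. For each comparison the count of the 45 genes past the threshold, their median fold change or both are therefore also given without it and the shallowest library.

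Levels were low. Per kilobase of exon, Pcna, the sliding clamp of DNA polymerase, was the highest at 7.28 CPM per kb over the 16 mice, and the next 5 genes, Mcm4, Mcm6, Mcm7, Mcm3 and Rrm1, ran from 1.63 down to 0.953 CPM per kb. All of these belong to replication and nucleotide supply. The lowest 4, Ccnb1, Ndc80, Bub1 and Melk, lay between 0.0537 and 0.0707 CPM per kb and are genes of mitosis. Others of mitosis were spread over the order, with Cenpf in eighth place at 0.75 CPM per kb, Cdc20 at 0.542 and Mki67 at 0.528, whereas the replication gene Tyms was at 0.197. Exon length joined the exons of all annotated transcripts, 6089 bases for Tyms and 1868 for Cdc20, so this order also depends on the annotation. In AAV9-GFP sham mice alone Cenpf was at 1.15 CPM per kb, behind Pcna (7.36) and Mcm4 (1.61) and close to Mcm7 (1.13) and Mcm6 (1.06). Of the 45 genes, 44 passed the filter on low counts and entered the test among 16857 genes, and Melk, a mitotic kinase, did not.

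**Figure D1:**
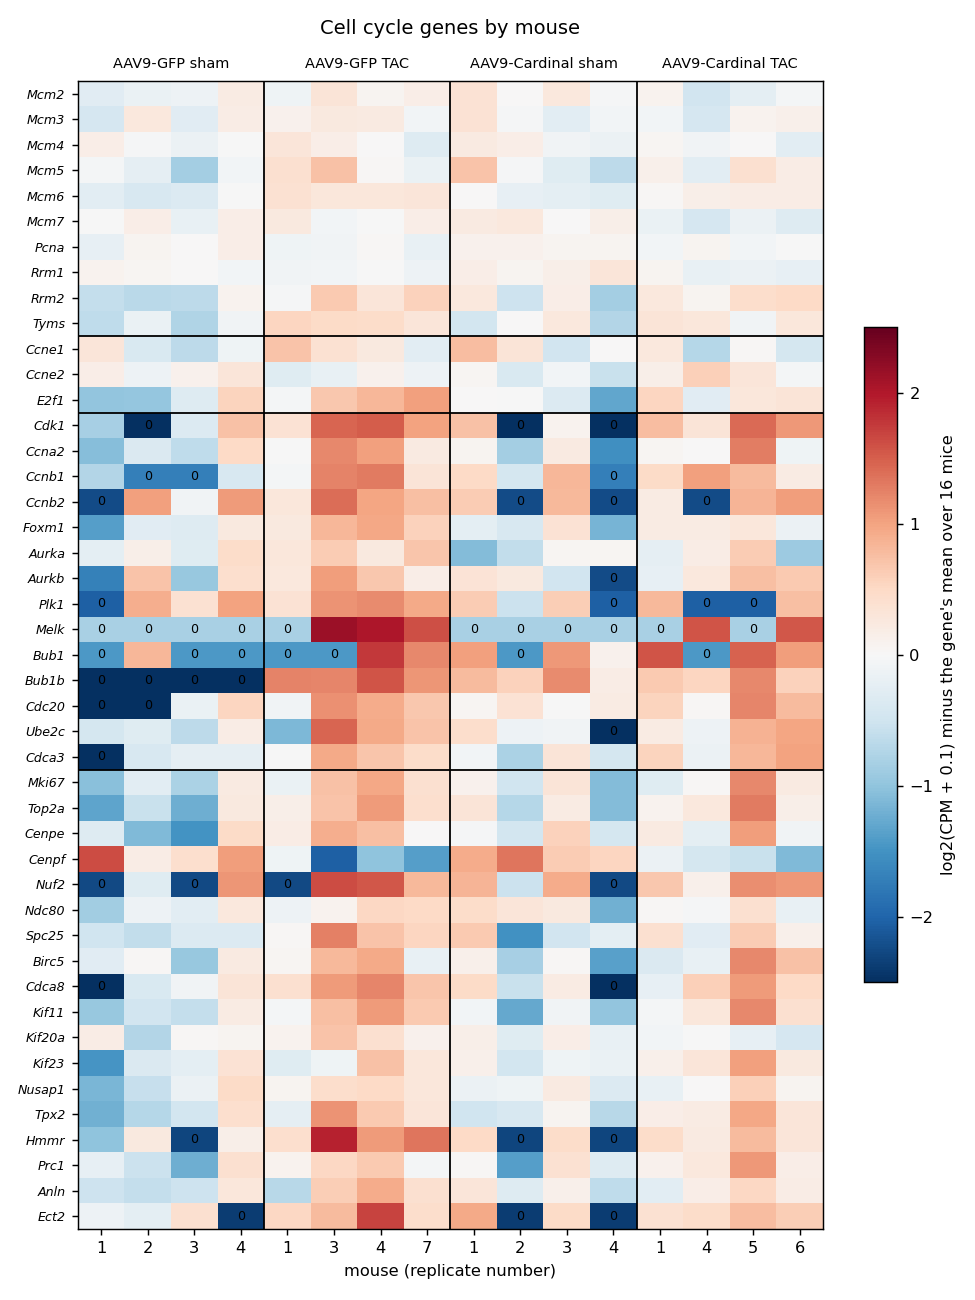
Level of each of the 45 genes (rows, by role from replication at the top to chromosome and spindle at the bottom) in each of the 16 mice (columns), as log2(CPM + 0.1) minus the mean of the gene over the 16 mice. A 0 marks a count of 0. The upper replication rows are pale in every group, the mitotic rows are redder in AAV9-GFP TAC mice, and Cenpf runs against the rows around it.

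Under AAV9-GFP, TAC raised a set of mitotic genes and 3 replication genes and lowered Cenpf. At an adjusted p under 0.05 (edgeR, quasi-likelihood test, Benjamini-Hochberg over all genes tested), 9 of the 44 genes were higher in TAC than in sham and 1 was lower, against 8.49% of all tested genes higher and 8.92% lower. The median log2 fold change of the 44 was 0.83, and that of all tested genes 0.005. Of the 44, 40 had a positive estimate. Groups did not overlap, with all 4 TAC mice above all 4 sham mice, for 10 of the 44 genes, where 10.1% of all tested genes did so.

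By role, the mitotic cyclins, kinases and regulators had 3 genes higher of 13 tested and a median log2 fold change of 1.15. The chromosome and spindle genes had 3 higher and 1 lower of 18, with a median of 0.96. The replication genes had 3 higher of 10, but a median of 0.19. None of the 3 G1/S regulators passed. Counted as summed CPM, the 31 mitosis genes other than Cenpf reached 49.1 ± 14.4 in AAV9-GFP TAC mice and 24.0 ± 10.1 in AAV9-GFP sham mice (SD, n = 4 each), while the 10 replication genes reached 61.1 ± 2.62 and 56.3 ± 4.15 CPM.

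Mki67, the nuclear protein used as the standard marker of cycling cells, stood at 2.27, 3.98, 2.74 and 5.62 CPM in the AAV9-GFP sham mice and at 4.28, 8.05, 9.44 and 6.34 CPM in the AAV9-GFP TAC mice. The ranges overlapped through sham replicate 4 and TAC replicate 1. Its log2 fold change was 0.94 ± 0.38 (SE) and missed the threshold (adjusted p = 0.102). Top2a, the topoisomerase that untangles sister chromosomes, stood at 1.09, 1.92, 1.17 and 3.42 CPM in sham and 3.21, 4.78, 6.12 and 3.87 CPM in TAC, with the same pair of mice overlapping, and rose by 1.24 ± 0.40 on the log2 scale (adjusted p = 0.0442). Kif11, the motor that pushes the spindle poles apart, rose by 1.11 ± 0.36 (adjusted p = 0.045). It went from 0.662, 0.96, 0.881 and 1.61 CPM to 1.33, 2.39, 2.97 and 2.22 CPM.

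Foxm1, the transcription factor of the G2 wave, rose by 1.09 ± 0.31 (adjusted p = 0.0261), from 0.378 to 1.37 CPM in sham mice to 1.37 to 2.32 CPM in TAC mice, the 2 ranges meeting but not crossing. Ccnb1, the cyclin that starts mitosis with Cdk1, rose by 2.85 ± 0.79 (adjusted p = 0.021). Its counts were 2, 0, 0 and 3 in sham and 5, 16, 16 and 7 in TAC, and 23.4% of its 50-base stretches also occur in other genes, among them the pseudogene Ccnb1-ps, so its level is uncertain. Spc25, a subunit of the NDC80 kinetochore complex, rose by 1.29 ± 0.40 (adjusted p = 0.0356).

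Among the replication genes, Mcm6, a subunit of the replicative helicase, gave the cleanest separation. Its values were 4.87, 4.41, 4.6 and 5.86 CPM in AAV9-GFP sham mice and 7.66, 7.13, 7.17 and 7.25 CPM in AAV9-GFP TAC mice, a log2 fold change of 0.57 ± 0.09 (adjusted p = 0.000747). The other 5 helicase subunits did not pass, with estimates from 0.05 (Mcm4) to 0.58 (Mcm5). Tyms, thymidylate synthase, rose by 0.90 ± 0.21 (adjusted p = 0.0091). It was at 0.709, 1.01, 0.636 and 1.07 CPM in sham and 1.71, 1.63, 1.62 and 1.43 CPM in TAC, with no overlap. Rrm2, the S-phase subunit of ribonucleotide reductase, rose by 0.87 ± 0.25 (adjusted p = 0.0263). Rrm1, the partner subunit that is also present outside S phase, was at -0.09 ± 0.07 and did not pass.

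Several of these calls depended on single mice. The number of genes past the threshold was 10 with all mice, 4 without AAV9-GFP sham replicate 2, sham replicate 3 or TAC replicate 3, 5 without sham replicate 1 or TAC replicate 4, 6 without TAC replicate 7, 14 without sham replicate 4 and 16 without TAC replicate 1. Mcm6, Tyms, Cenpf and Bub1b passed in all 16 fits that left out 1 mouse, Ccnb1 in 12, Foxm1 and Rrm2 in 11, Top2a and Spc25 in 9, and Kif11 in 8. These 16 include fits without an AAV9-Cardinal mouse, which kept both AAV9-GFP groups whole. Among fits without an AAV9-GFP mouse, Spc25 passed only without TAC replicate 1. Top2a and Kif11 passed there only without sham replicate 4 or TAC replicate 1. Without the fibroblast-rich and the shallowest AAV9-Cardinal library together, 8 genes were higher and 1 lower, Spc25 did not pass, and the median was again 0.83.

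**Figure D2:**
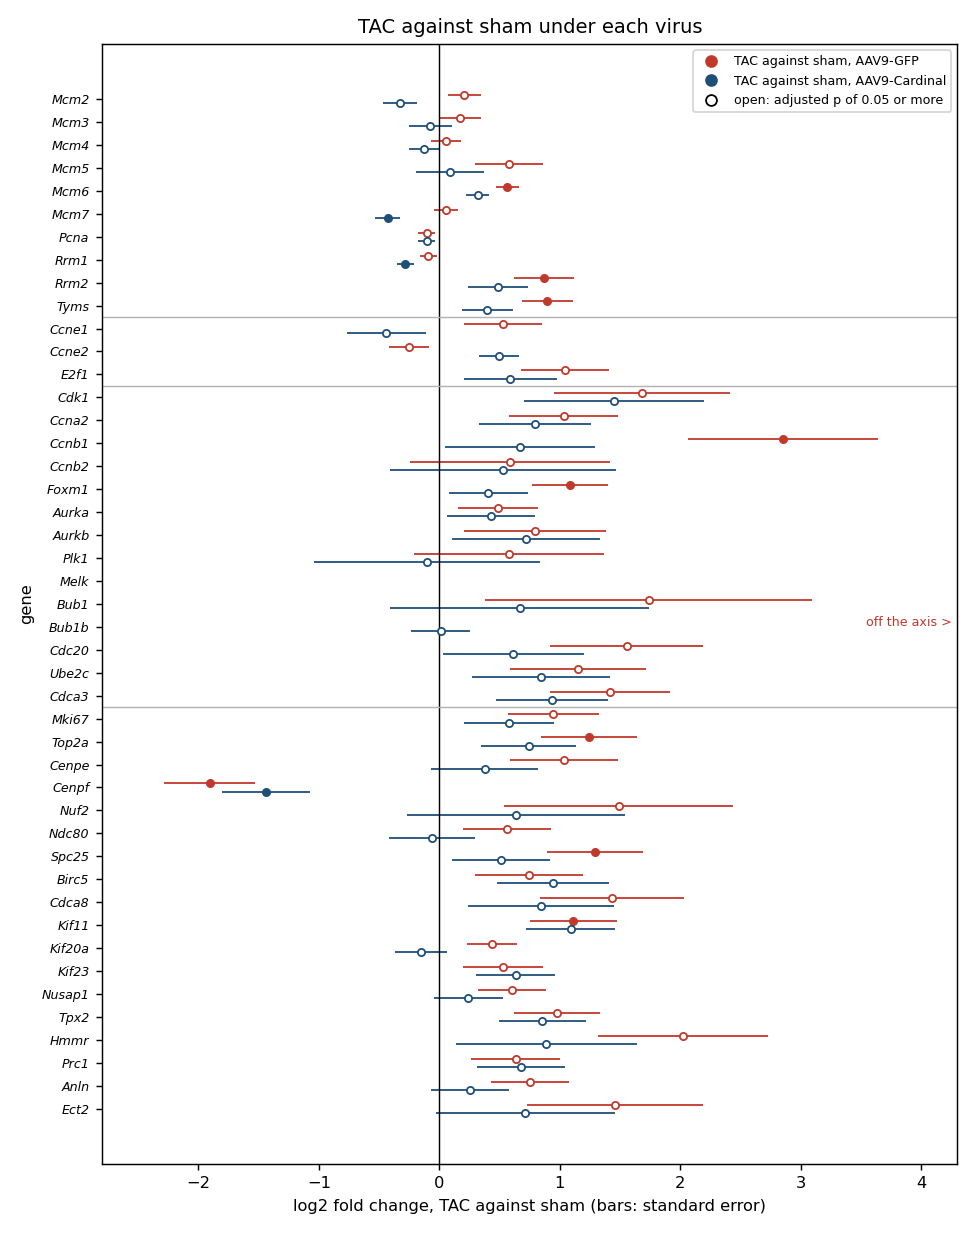
Log2 fold change of TAC against sham (horizontal axis, bars: standard error) for the 44 tested genes under AAV9-GFP (red) and AAV9-Cardinal (blue), filled where the adjusted p was under 0.05; Melk was not tested and the AAV9-GFP value of Bub1b lies off the axis. Most points sit right of 0, with Cenpf at -1.91 and -1.44 on the far left.

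Under AAV9-Cardinal, no gene of the 44 was higher after TAC by the test and 3 were lower: Cenpf, Mcm7 and Rrm1. Of all tested genes, 3.1% were higher and 3.38% lower. The median log2 fold change of the 44 was 0.50, and 33 had a positive estimate. All 4 TAC mice lay above all 4 sham mice for Mcm6, Kif11, Kif23 and Tpx2, which is 4 of 44 genes where 6.51% of all tested genes did so. By role the median was 0.67 for the mitotic cyclins and kinases, 0.64 for the chromosome and spindle genes and -0.09 for the replication genes. Summed over the 31 mitosis genes other than Cenpf, the level was 42.6 ± 14.1 CPM in TAC and 27.6 ± 10.7 CPM in sham (SD, n = 4 each). Without the fibroblast-rich TAC mouse and the shallowest sham mouse the count was again 3 lower and 0 higher. Without that TAC mouse alone it was 3 lower and 1 higher. The same held without AAV9-GFP sham replicate 4, and with a filter of at least 1 CPM in 4 mice. The median was 0.33 without both libraries, which was also its lowest value with 1 mouse left out (0.33 to 0.64).

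Mki67 stood at 5.19, 3.39, 6.05 and 2.2 CPM in AAV9-Cardinal sham mice and at 3.89, 4.88, 11.1 and 5.61 CPM in AAV9-Cardinal TAC mice, so that only TAC replicate 5 lay above the sham range. Its log2 fold change was 0.58 ± 0.38 (adjusted p = 0.406). For Top2a the values were 3.61, 1.72, 3.31 and 1.3 CPM in sham and 3.05, 3.47, 7.21 and 3.17 CPM in TAC, again with replicate 5 alone on top (0.74 ± 0.39, adjusted p = 0.291). Kif11 came nearest among the mitotic genes, at 1.09 ± 0.37 (adjusted p = 0.0959), from 1.31, 0.511, 1.3 and 0.648 CPM to 1.33, 1.69, 3.3 and 1.84 CPM. Mcm6 was at 0.32 ± 0.09 (adjusted p = 0.0549), from 5.96, 5.06, 4.94 and 4.73 CPM to 5.97, 6.48, 6.7 and 6.72 CPM, without overlap, and Ccne2 at 0.50 ± 0.17 (adjusted p = 0.0892).

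Mcm7, another helicase subunit, fell by 0.43 on the log2 scale (SE 0.11, adjusted p = 0.0273), from 5.69, 5.85, 4.94 and 5.38 CPM to 4.33, 3.62, 4.42 and 3.86 CPM without overlap. Of the 16857 tested genes, 1215 were lower without overlap under AAV9-Cardinal. Of its 50-base stretches, 23.3% occur in other genes, and Ap4m1 lies antisense over part of its exons, so its counts are uncertain. Rrm1 fell by 0.28 (SE 0.07, adjusted p = 0.0314), from 11.7, 10.9, 11.6 and 13 CPM to 11, 9.2, 9.44 and 9.02 CPM, with TAC replicate 1 inside the sham range. All 3 calls were lost without AAV9-Cardinal TAC replicate 4 or without TAC replicate 6, and the count of genes past the threshold was 1 without AAV9-Cardinal sham replicate 1, 2 or 4 or TAC replicate 5. Without sham replicate 1 that gene was Mcm6, which was then higher in TAC.

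**Figure D3:**
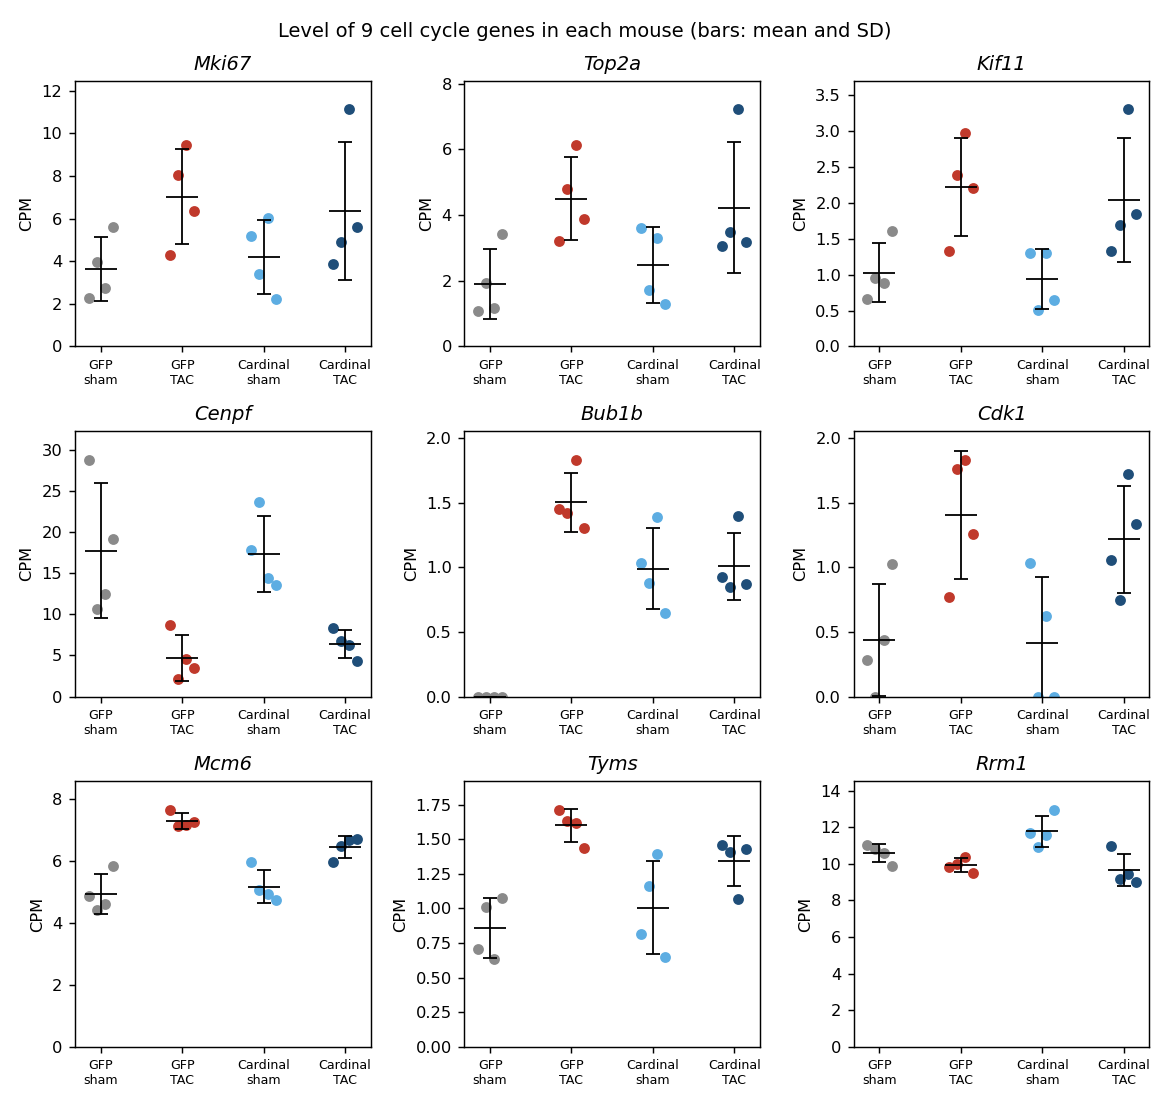
CPM of 9 of the genes in every mouse, by group, with the mean and SD. Mcm6 and Tyms separate AAV9-GFP TAC from AAV9-GFP sham mice, Cenpf falls after TAC under both viruses, and Bub1b is at 0 in the 4 AAV9-GFP sham mice only.

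Averaged over both viruses, TAC raised 13 of the 44 genes and lowered 2, against 11.3% of all tested genes higher and 11.8% lower. The 13 were the 9 that rose under AAV9-GFP together with Cdk1, the kinase that drives mitosis, Cdca3, which acts on entry into mitosis, E2f1, an activator of the S-phase wave, and Tpx2, a spindle assembly factor that activates Aurora A. Among the 9 is Bub1b, whose means under AAV9-Cardinal were alike, at 0.99 CPM in sham and 1.01 CPM in TAC. Its average rests on the AAV9-GFP sham mice, all at 0 counts. Cdk1 rose by 1.57 ± 0.52 (adjusted p = 0.0419). Its counts were 6, 0, 9 and 21 in AAV9-GFP sham mice, 18, 42, 42 and 29 in AAV9-GFP TAC mice, 23, 0, 13 and 0 in AAV9-Cardinal sham mice and 24, 16, 37 and 29 in AAV9-Cardinal TAC mice. Tpx2 rose by 0.92 ± 0.25 (adjusted p = 0.0164), Cdca3 by 1.17 ± 0.34 (adjusted p = 0.0209) and E2f1 by 0.82 ± 0.27 (adjusted p = 0.037). Mki67 was at 0.76 ± 0.27 with an adjusted p of 0.0506. The 2 lower genes were Cenpf, at -1.67 ± 0.26 (adjusted p = 0.00035), and Rrm1, at -0.19 ± 0.05 (adjusted p = 0.0144). Without the 2 libraries named above, 11 genes passed, and Cdk1, E2f1, Foxm1 and Spc25 did not. The count was 23 without AAV9-GFP sham replicate 4, the sham mouse with the highest summed mitosis genes, and 11 without AAV9-Cardinal TAC replicate 5. Of the 16 fits that left out 1 mouse, Cdk1 and E2f1 passed in only 5, Spc25 in 9 and Foxm1 in 13. The other genes named as past the threshold for the average passed in all 16.

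Cenpf encodes a large protein of the outer kinetochore and nuclear matrix that is made in G2 and M, and in most dividing tissues it follows Mki67 and Top2a. Here it did not. It was at 28.8, 10.6, 12.5 and 19.1 CPM in AAV9-GFP sham mice and 8.65, 2.18, 4.59 and 3.52 CPM in AAV9-GFP TAC mice, at 17.8, 23.7, 14.4 and 13.5 CPM in AAV9-Cardinal sham mice and 8.31, 6.81, 6.28 and 4.28 CPM in AAV9-Cardinal TAC mice. Sham and TAC did not overlap under either virus. Of the 16857 tested genes, 1727 were lower in this way under AAV9-GFP and 1215 under AAV9-Cardinal. The log2 fold changes were -1.91 ± 0.38 (adjusted p = 0.00281) and -1.44 ± 0.37 (adjusted p = 0.0329). Under AAV9-Cardinal the call was lost without sham replicate 1 or 2 or TAC replicate 4, 5 or 6, with adjusted p of at most 0.102 and estimates from -1.59 to -1.25 over the 16 fits. Only 0.27% of its 50-base stretches occur elsewhere and no other gene overlaps its exons.

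Likeness to Mki67 within groups varied between the mitotic genes. Over the 16 mice, deviations of log2 CPM from the group mean in Mki67 went with those of Top2a (Pearson r = 0.95), Ccna2 (0.95), Kif11 (0.92), Anln (0.84) and Tpx2 (0.80), less with those of Cdc20 (0.38) and Kif20a (0.16), and Cenpf had r = -0.32. The median over the 9 chromosome and spindle genes at 1 CPM or more, Cenpf included, was 0.76, and over the 10 replication genes 0.38, with Rrm1 at -0.41. These are descriptions over 16 libraries that share depth and scaling between genes, and the 16 deviations within 4 groups are not independent. In CPM the weight of Cenpf was such that the sum of all 45 genes differed by 17.6 CPM between AAV9-GFP TAC and sham with it and by 30.6 CPM without it. On plain library totals, without the scaling between libraries, the former was 30.2 CPM. The corresponding values under AAV9-Cardinal were 1.01 and 11.96 CPM, and single mice set the first of them, which was -6.12 CPM without TAC replicate 5, -5.26 CPM without sham replicate 4 and 6.21 CPM without sham replicate 1.

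**Figure D4:**
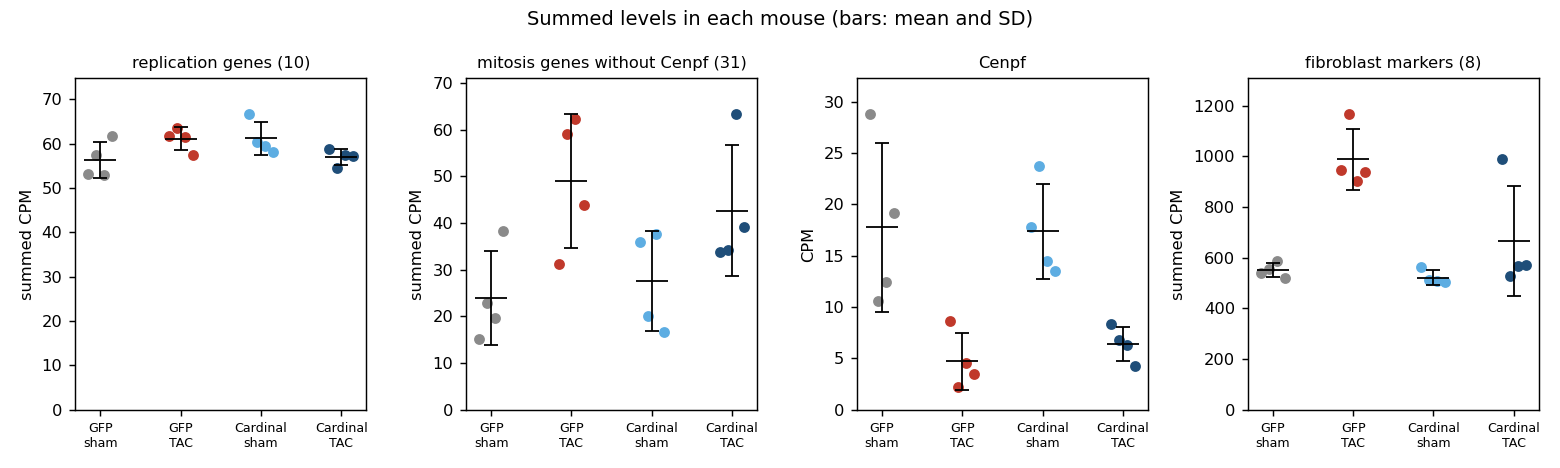
Summed CPM of the 10 replication genes and of the 31 mitosis genes other than Cenpf, CPM of Cenpf and summed CPM of 8 fibroblast markers in each mouse, with the mean and SD. Mitosis genes are highest in AAV9-Cardinal TAC replicate 5 (63.4) and AAV9-GFP TAC replicate 4 (62.2), whereas the fibroblast markers are highest in AAV9-GFP TAC mice and AAV9-Cardinal TAC replicate 1.

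The comparison between viruses asked whether Cardinal changed these genes with or without pressure overload. In TAC hearts, 0 of the 44 genes passed with edgeR, with 4 at an unadjusted p under 0.05, where 0.101% of all tested genes passed. DESeq2 called 0 as well, but gave no adjusted p for 41 of the 44. The lowest p belonged to Mcm7 (-0.36 ± 0.10, adjusted p = 0.129), Kif20a, a motor of cytokinesis (-0.54 ± 0.21, adjusted p = 0.226), Ccne2, a cyclin of S-phase entry (0.40 ± 0.16, adjusted p = 0.255), Bub1b (-0.57 ± 0.23, adjusted p = 0.265) and Mcm2 (-0.28 ± 0.14, adjusted p = 0.361). Both Kif20a and Ccne2 lie under antisense genes (Cdc23 and Ints8). Mki67 was at -0.14 ± 0.36 and Top2a at -0.09 ± 0.37. Of the 44 estimates, 7 were positive and the median was -0.20. It was -0.15 with 12 positive without the 2 libraries named above, -0.080 with 16 positive without AAV9-GFP TAC replicate 3 and -0.38 with 5 positive without AAV9-Cardinal TAC replicate 5.

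In sham hearts 1 of the 44 genes, Bub1b, passed (adjusted p = 0.000683), among 0.0119% of all tested genes. The median of the 44 was 0.16, 0.30 without the 2 libraries and from 0.033 (without AAV9-Cardinal sham replicate 1) to 0.40 (without AAV9-GFP sham replicate 4) with 1 mouse left out. The next lowest p belonged to Ccnb1 (2.00 ± 0.89), Rrm1 (0.15 ± 0.07), Ccne2 (-0.35 ± 0.17) and Mcm2 (0.25 ± 0.14), each with an adjusted p of 1. For the difference between the viruses in the response to TAC, Bub1b again was the only 1 of the 44 to pass (adjusted p = 0.00099), among 0.0119% of all tested genes. The next lowest p were those of Mcm7 (-0.48 ± 0.15, adjusted p = 0.311), Ccne2 (0.75 ± 0.23, adjusted p = 0.321), Mcm2 (-0.53 ± 0.20, adjusted p = 0.387) and Ccne1 (-0.97 ± 0.46, adjusted p = 0.492). The median estimate of the difference was -0.47, with 5 of 44 positive, and both viruses' own medians are given above. Without the 2 libraries it was -0.53 with 8 positive, and with 1 mouse left out it ran from -0.64 (without AAV9-GFP sham replicate 4) to -0.25 with 11 positive (without AAV9-GFP sham replicate 1) and -0.22 with 12 positive (without AAV9-Cardinal sham replicate 1). The call of Bub1b for the difference was lost with the replicate number as a block (adjusted p = 0.281), and DESeq2 gave none of the 44 an adjusted p there. Its call in sham hearts was lost with the block (adjusted p = 0.174) and when the 8 sham mice were fitted alone (adjusted p = 0.175).

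Bub1b encodes BubR1, the spindle checkpoint kinase that holds cells in metaphase. Its counts were 0 in all 4 AAV9-GFP sham mice, 34, 34, 42 and 30 in AAV9-GFP TAC mice, 23, 19, 29 and 10 in AAV9-Cardinal sham mice and 21, 18, 30 and 19 in AAV9-Cardinal TAC mice. Against a floor of 3 counts in each AAV9-GFP sham library, the mean of AAV9-GFP TAC was at least 10.4-fold higher. That of AAV9-Cardinal sham was at least 6.84-fold higher. Both bounds are untested ratios and hold only if a 0 stands for no more than 3 counts. The edgeR test of the fitted change, AAV9-GFP TAC against sham, gave an adjusted p of 7.82e-06. Under AAV9-Cardinal, TAC and sham had means of 1.01 ± 0.259 and 0.99 ± 0.312 CPM, a log2 fold change of 0.01 ± 0.24 (adjusted p = 0.998). Of the 55573 genes, no other gene was at 0 in these 4 mice and had 10 counts or more in each of the remaining 12. This pattern is that of Bub1b itself, so the search describes the gene and is no test. The same search for the other groups is not given here. No mouse had a Bub1b count from 1 to 9. Other mitotic genes varied in the same 4 sham mice. Kif11 had 14 to 33 counts, whereas Melk was at 0 in 4 of them, Bub1 in 3, and Ccnb1, Cdc20 and Nuf2 in 2 each.

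Counts of 0 were frequent among the mitotic genes. Of the 45 genes, 15 had 0 in at least 1 mouse, and all 15 reached 10 or more in another. They were Bub1b, Cdk1, Ccnb1, Ccnb2, Aurkb, Plk1, Melk, Bub1, Cdc20, Ube2c and Cdca3 among the cyclins, kinases and regulators and Nuf2, Cdca8, Hmmr and Ect2 among the chromosome and spindle genes. No replication gene had any. Sham mice held 43 of these values and TAC mice 10. The shallowest library, AAV9-Cardinal sham replicate 4, held 11, and AAV9-GFP sham replicate 1 held 9.

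Some of the 0 values stood beside counts of 10 or more in mice of the same group. Cdc20, the activator of the anaphase-promoting complex, was at 0, 0, 14 and 24 in AAV9-GFP sham mice and at 14 to 44 elsewhere. Plk1, a mitotic kinase, was at 14, 0, 0 and 13 in AAV9-Cardinal TAC mice. Ccnb2 was at 0 in replicate 4 of that group and at 10 to 19 in the rest. Of the 24 members with a mean of 5 to 30 counts, 14 had a 0 in some mouse (58.3%), against 604 of 3389 other tested genes in this range (17.8%). By exon length, the share over all tested genes in this range was 10.3% under 1 kb, 19.0% from 1 to 2 kb, 21.9% from 2 to 4 kb and 22.9% over 4 kb, where 8 of 13 members had one. Estimates for these genes therefore carry wide errors, as with Plk1 at -0.10 ± 0.94 and Nuf2 at 0.64 ± 0.91 under AAV9-Cardinal. Whether a 0 means no transcript or a value lost in counting was not tested.

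Melk was at 0 in all 8 sham mice, at 0, 16, 14 and 10 counts in AAV9-GFP TAC mice and at 0, 9, 0 and 9 in AAV9-Cardinal TAC mice. Of the other genes with a 0, none but Bub1b, Ccnb1, Cdk1 and Cdca3 passed in a comparison. Under AAV9-GFP the log2 fold changes in the kinases and regulators were 1.55 ± 0.64, adjusted p = 0.111 for Cdc20, 1.15 ± 0.57, adjusted p = 0.19 for its partner in ubiquitination Ube2c, 1.74 ± 1.36, adjusted p = 0.436 for the checkpoint kinase Bub1, 0.58 ± 0.79, adjusted p = 0.691 for Plk1, 0.79 ± 0.59, adjusted p = 0.405 for Aurora kinase B and 0.59 ± 0.83, adjusted p = 0.701 for cyclin B2. In the chromosome and spindle genes they were 2.02 ± 0.71, adjusted p = 0.0622 for the spindle protein Hmmr, 1.49 ± 0.95, adjusted p = 0.327 for the kinetochore subunit Nuf2, 1.43 ± 0.60, adjusted p = 0.119 for borealin (Cdca8) and 1.46 ± 0.73, adjusted p = 0.201 for the cytokinesis factor Ect2. Hmmr, Cdca8 and Ect2 nevertheless had all 4 TAC mice above all 4 sham mice.

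Other genes of the cycle were counted from lists outside the 45. The shares of all tested genes to set beside them are 8.49% higher and 8.92% lower under AAV9-GFP and 3.1% higher and 3.38% lower under AAV9-Cardinal. Of 52 tested mitosis genes, 13 were higher and 2 lower after TAC under AAV9-GFP, with a median log2 fold change of 0.66, and 1 was higher under AAV9-Cardinal, with a median of 0.24. Hmgb2, a chromatin protein of cycling cells, rose by 0.45 ± 0.12 (adjusted p = 0.02) under AAV9-GFP. Kif4, a chromosome-bound motor, rose under AAV9-Cardinal by 2.85 ± 0.81 (adjusted p = 0.0486), a call lost without the 2 libraries named above (adjusted p = 0.114). Pttg1, securin, and Sgo2a, a guardian of cohesin, were the 2 lower genes under AAV9-GFP, at -0.47 ± 0.05 (adjusted p = 5.82e-05) and -0.58 ± 0.14 (adjusted p = 0.00897).

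Of 42 tested replication genes outside the 45, 2 were higher and 6 lower under AAV9-GFP, where 8.49% and 8.92% of all tested genes were, and 1 higher and 1 lower under AAV9-Cardinal, where 3.1% and 3.38% were. Rpa1, the large subunit of the single-strand binding protein, fell under both viruses, by 0.35 (SE 0.06, adjusted p = 0.000582) and by 0.25 (SE 0.06, adjusted p = 0.0169). Dut, which clears dUTP, and Pold2, a polymerase subunit, fell under AAV9-GFP by 0.53 and 0.27, and Timeless, a fork protein, rose by 0.44. Of 15 genes of cell cycle entry, E2f3 (0.42 ± 0.11), Mycn (1.08 ± 0.32) and Myc (0.88 ± 0.29) were higher under AAV9-GFP and 0 passed under AAV9-Cardinal with edgeR. Without the 2 libraries named above, 2 of these 15 were lower under AAV9-Cardinal and 0 higher. Of 27 brakes of the cycle, 6 were higher and 1 lower under AAV9-GFP, and 1 was higher under AAV9-Cardinal, against the same shares. Without the 2 libraries 3 brakes were higher and 2 lower under AAV9-Cardinal. Btg2, an antiproliferative gene, rose under both viruses, by 0.69 ± 0.19 (adjusted p = 0.0191) and 0.81 ± 0.19 (adjusted p = 0.022), and Wee1, which holds back Cdk1, fell under AAV9-GFP by 0.52 (SE 0.16, adjusted p = 0.0419). With all 16 mice no gene of these lists passed between the viruses, whereas without the 2 libraries Pttg1 (0.22, adjusted p = 0.0335) and Cdk4 (-0.31, adjusted p = 0.0434) did in TAC hearts, and Pttg1 did for the difference in response (0.36, adjusted p = 0.0416). These 2 were singled out after their values were seen.

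Cell type markers moved beside the mitotic genes in part. The 8 fibroblast markers summed to 519 to 587 CPM in AAV9-GFP sham mice and 903 to 1168 CPM in AAV9-GFP TAC mice, and 5 of the 8 were higher by the test, with a median log2 fold change of 0.89. The 8 endothelial markers went from 506 to 612 CPM to 577 to 703 CPM (2 higher) and the 10 macrophage markers from 198 to 233 CPM to 215 to 276 CPM (2 higher), with overlapping ranges. The sum of the 8 cardiomyocyte markers fell from 47357 to 50509 CPM to 36589 to 43863 CPM. Of the 8, 6 were lower by the test and 2 had a positive estimate. Under AAV9-Cardinal, 1 fibroblast marker was higher. TAC replicate 1, with the highest fibroblast sum at 989 CPM, had 33.7 CPM of summed mitosis genes. Replicate 4 was close, at 34.2 CPM, with 529 CPM of fibroblast markers. Replicate 5, the highest in mitosis genes at 63.4 CPM, had 569 CPM of fibroblast markers. Among AAV9-GFP TAC mice, replicate 3 had the highest fibroblast sum (1168 CPM) and 59.2 CPM of mitosis genes. Replicate 4 there had the lowest fibroblast sum (903 CPM) and 62.2 CPM of mitosis genes. The part of any cell type in the changes of the 45 genes was not tested.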

How the data were processed

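RNA-seq libraries from the heart apex of 16 mice were analysed from 1 table of raw counts per gene, deposited by the authors. Per the labels, reads were single-end and 50 bases long, and the submitters' processing notes name FastQC, HISAT2 2.1.0, edgeR 3.26.1 and the build GRCm38. The counting program, the annotation and the use of strand were not given in the sources used here. Gene names for 55480 of 55573 identifiers came from GENCODE M21, and the remaining 93 were kept without a name. Groups were taken from the labelled virus and surgery.

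Counts were tested with edgeR 4.0.16 in R 4.3.3 (TMM scaling, filterByExpr over the 4 groups, quasi-likelihood fit of all 16 mice, 6 comparisons, Benjamini-Hochberg adjustment over 16857 genes, threshold 0.05), and the fit was tested on simulated data. CPM used TMM library sizes. TMM put AAV9-GFP TAC mice 0.16 lower on the log2 scale, relative to sham, than plain totals would, and 0.04 lower under AAV9-Cardinal. On plain totals the ratios of mean CPM, TAC to sham under AAV9-GFP, were 0.07 for Rrm1 and 0.06 for Pcna on the log2 scale, positive where TMM gave -0.09 and -0.11. Shared sequence was scored as the share of 50-base stretches of a gene's exons found in other genes. Alternatives were DESeq2 1.42.0 and its size factors, 2 other filters, a robust fit, only the mice compared, a replicate block and leaving out each mouse. Leaving out 2 libraries together and leaving Cenpf out of the sum were chosen after seeing the data. The 45 genes, their roles and the lists were chosen with earlier results of these data known. Named with values were genes past the threshold, the 5 lowest p of each comparison, genes with a 0 beside 10 counts or more, and at most 4 genes per list. Those with no more than a count or a range are summarised.

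Deviations of same-numbered mice of different groups were at most weakly correlated: over 16 pairs, r ran from -0.04 to 0.21 and was over 0.1 in 4. The median r was 0.054, against -0.013 for mice of other numbers. These values do not settle whether the numbers pair the mice. Counts of 0 to 3 limit the precision: 3 counts equal 0.126 to 0.194 CPM.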

Additional observations from a re-analysis of the deposited data

Results flagged for a closer look

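Bub1b differed between the viruses in its response to TAC by -8.01 on the fitted log2 scale, a size that rests on the 4 AAV9-GFP sham mice at 0 and is no measure of a fold. In groups of 4 mice, 1 value far from the other 3 was found for 11 of 155 groups examined, where chance gives about 1 in 20. Of these, 7 were AAV9-Cardinal TAC replicate 5, which was high in Top2a (7.21 CPM against 3.05 to 3.47), Tpx2 (2.70 against 1.503 to 1.66), Bub1b (1.40 against 0.845 to 0.928), the sum of all 45 genes (132.6 against 100.9 to 106.3), the sum of the chromosome and spindle genes (53.5 against 31.4 to 32.5) and that sum without Cenpf (47.3 against 23.1 to 27.1). The remaining value of that mouse was low, in Tyms (1.07 CPM against 1.41 to 1.46). Its flagged sums contain Top2a and Tpx2 and share genes with each other, so its 7 values are not independent. AAV9-Cardinal TAC replicate 6 was low in the summed G1/S regulators (4.37 CPM against 5.31 to 5.44). Among AAV9-GFP sham mice, replicate 4 was high in Rrm2 (1.95 CPM against 1.10 to 1.18), replicate 2 was the only one with Bub1 (0.384 CPM against 0) and replicate 1 was the only one at 0 CPM in Cdca3 (0 against 0.336 to 0.392).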

How the results depend on the processing

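Direction held for most of the named genes under the alternatives run. Over the fold changes of named genes and comparisons, 1255 values with 1 mouse left out and 588 under the other settings kept direction and side of the threshold, 143 and 61 lost the call, 18 and 5 gained it, and 8 and 4 reversed. The replicate numbers were not used to pair the mice in the fit reported, and the correlations do not settle whether they pair them. With a replicate block the count of the 45 genes past the threshold was 4 for AAV9-GFP TAC (10 without the block) and 0 for AAV9-Cardinal TAC (3). It was 4 for the average (15), 0 between viruses in sham (1) and 0 for the difference in response (1). The count of all genes went from 1092 to 31 under AAV9-Cardinal and from 3888 to 2019 for the average. Of 13 mice with a same-numbered mouse elsewhere, 5 correlated best with their own number. The AAV9-Cardinal TAC count was 1 with no filter on low counts. Bub1b did not pass in sham with only the mice compared (0 genes), and for the difference in response DESeq2 gave 0 of the 44 genes an adjusted p and so called 0. With 1 mouse left out the count ran from 4 to 16 for AAV9-GFP TAC, from 0 to 4 for AAV9-Cardinal TAC and from 11 to 23 for the average. Reversed estimates, none of them past the threshold, were those of Hmgb2 (-0.017) and Wee1 (0.014) under AAV9-Cardinal with the block, Plk1 (-0.23) for the average and Timeless (-0.10) under AAV9-Cardinal without both libraries that stood apart, and, with 1 mouse left out, Lin37 in 3 fits, Timeless in 2, Wee1 in 1 and Plk1 in 2. With 1 mouse left out their estimates ran from -0.10 to 0.055 (Lin37), from -0.073 to 0.075 (Timeless), from -0.16 to 0.12 (Wee1) and from -0.065 to 0.44 (Plk1). Of all genes, 17 passed between viruses in TAC, against 428 with DESeq2, 35 with the stricter filter, 3 with no filter, 0 with the block or only the mice compared, 520 without both libraries and 0 to 540 with 1 mouse left out. For AAV9-Cardinal TAC they were 615 with no filter and 404 to 669 where 1 mouse moved them most. For the difference in response they were 137 with DESeq2, 93 without both libraries, 79 without AAV9-Cardinal TAC replicate 1 alone and 1 with the block (2 in the fit reported). In sham they were 4 with DESeq2 and 1 with the block (2 reported). The cause was not tested.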
